A study of Mus musculus with 24 samples.

Results

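The genes described here encode collagen chains and laminin chains, the main structural proteins of the matrix around heart cells. They were taken by name from the deposited count table, as symbols made of Col, a number, a and a number, or starting with Lama, Lamb or Lamc and a digit, with at least 10 counts in at least 6 of the 24 libraries. The table of 23337 genes holds 54 such names, of which 37 met the minimum: 28 collagen genes and 9 laminin genes. The results below are for 36 of them, 28 collagen genes and 8 laminin genes, which all passed the filter on low counts that left 12281 genes for testing. Just inside the minimum, Col23a1 had 10 counts in 7 libraries and Col20a1 and Col22a1 had them in 8. Just outside, Col28a1 had them in 3, and each of the other 16 names, Col12a1 and Lama1 among them, in at most 1.

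The libraries were made from cardiomyocytes of 4-week-old mouse hearts, isolated by Langendorff perfusion and sorted by flow cytometry, with 6 libraries in each of 4 groups. The control group (Ctrl) had the genotype Rosa-Cas9/Cas9 and received AAV-Cre, an adeno-associated virus with the Cre recombinase. The MKO group had the same genotype and received AAV-Myocd-sgRNA, which carries a guide RNA against myocardin. DKO mice had the genotype labelled Mrfta-/-; Mrtfb-F/F; Rosa-Cas9/Cas9 and received AAV-Cre, and TKO mice had that genotype and received AAV-Myocd-sgRNA. Virus was given on postnatal day 1. Every group thus carries Cas9. The Cre virus is named for Ctrl and DKO only, and the labels do not say whether the guide virus also carries Cre. MKO and Ctrl may therefore differ in Cre as well as in the gene targeted. The promoters that drive Cre and Cas9 are not stated in the labels, nor whether each library is its own animal. Myocardin, Mrtfa and Mrtfb form one family of coactivators of serum response factor, which binds the CArG box and drives genes of contraction and the cytoskeleton.

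As a check of the labels, Mrtfa, listed as Mkl1, stood at 4.81 to 11.9 CPM (counts divided by the normalized depth of the library) over Ctrl and MKO libraries and at 1.33 to 2.77 over DKO and TKO libraries. Mrtfb, listed as Mkl2, stood at 44.1 to 59.2 over Ctrl and MKO libraries, at 26.6 to 39.3 over DKO and at 27.5 to 42.5 over TKO libraries. TKO, labelled with the guide virus only, thus lay in about the range of DKO, labelled with AAV-Cre. Whether Cre acted in TKO was not tested. Myocd stood at 153 to 242 CPM with AAV-Cre and at 120 to 323 with the guide virus. A guide cut need not lower the amount of RNA, so the Myocd count does not check those labels. The 12 cardiomyocyte markers summed to 95300 to 172000 CPM over the 24 libraries. The 12 tested fibroblast markers summed to 90.3 to 400 and the 14 endothelial markers to 181 to 1880. The 12 smooth muscle and pericyte markers summed to 217 to 907, most of it from 1 gene, Abcc9, at 130 to 703. In Ctrl 3 Abcc9 stood at 423, where Rgs5, Pdgfrb and Kcnj8 of the same list had their lowest values, 3.48, 6.96 and 2.49. The sum is thus mainly a reading of Abcc9 and no measure of these cells alone. The 8 tested leukocyte markers summed to 5.85 to 33.1. Pdgfra, Dcn, Pecam1, Cdh5 and Rgs5, which define the first 3 of these other cell types, were at 0 in no library, and Ptprc, which defines leukocytes, was at 0 in 3. The mean normalized counts in the authors' deposited tables equal those computed here from the libraries of each pair of groups without Ctrl 3 and DKO 1, within 0.001% for every gene with a mean above 10, and differ with them by a median of 2.28 to 8.52% in the 5 tables they enter. Results are therefore also given without these 2 libraries. DKO 1 deviated most from the rest of its group over all genes (SD 1.04 on the log2 scale), while Ctrl 3, at 0.58, was close to Ctrl 2, at 0.6.

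A basement membrane is a thin sheet that wraps each muscle cell and each blood vessel. Its laminins are trimers of an alpha, a beta and a gamma chain, and its collagen IV is a network of trimers of alpha chains. Around striated muscle the laminins carry the alpha2 chain and bind dystroglycan and integrin alpha7. Fibrillar collagens I, III and V form the fibres between cells and are made mainly by fibroblasts.

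Sequences upstream of 3 genes are shown because the results turn on these genes: a muscle laminin gene that passed no test, the space between a pair of collagen IV genes that were both higher in TKO, and a laminin gene that was higher in TKO. Each is from RefSeq on GRCm38.p6, 5′ to 3′ on the gene's own strand, ends at the base before the gene's start and overlaps no annotated exon. Capitals mark matches on either strand to the CArG box, the GC box, the CCAAT box or the TATA box.
Lama2, chr10:27616943-27617192, minus strand: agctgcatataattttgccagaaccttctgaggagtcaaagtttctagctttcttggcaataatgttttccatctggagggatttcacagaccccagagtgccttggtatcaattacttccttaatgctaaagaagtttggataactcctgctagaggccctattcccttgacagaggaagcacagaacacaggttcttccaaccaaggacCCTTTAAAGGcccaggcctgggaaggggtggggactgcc
Col4a4, chr1:82586850-82586920, minus strand: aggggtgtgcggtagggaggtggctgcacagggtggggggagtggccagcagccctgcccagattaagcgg
Lama5, chr2:180225860-180226109, minus strand: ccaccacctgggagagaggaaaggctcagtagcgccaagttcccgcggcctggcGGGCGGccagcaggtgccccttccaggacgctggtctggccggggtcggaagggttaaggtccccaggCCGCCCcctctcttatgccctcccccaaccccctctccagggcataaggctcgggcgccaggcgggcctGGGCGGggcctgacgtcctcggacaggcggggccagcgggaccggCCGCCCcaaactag
The capitals in the Lama2 stretch are a CArG box, which ends 30 bases before the start. Of the 36 genes 28 matched a RefSeq window of 250 bases before to 50 after the start, and a CArG box lay in 1 of them, beside 1.63% of all 32851 windows. The GC box (GGGCGG) lay in 19 of the 28 and in 35.7% of all windows. CCAAT lay in 9 of them and in 37.4% of all, and TATAAA in 3 and in 13.6%. A gene with more than 1 window was counted if any of them held the motif, while the percentages are of single windows. The capitals in the Lama5 stretch are 4 GC boxes. The Col4a4 stretch has no match, and it is the whole space of 71 bases between Col4a4 and Col4a3, which are read in opposite directions. By the gene ends in the count table, Col4a1 and Col4a2 on chromosome 8 are arranged likewise, 2 bases apart. Col4a6 and Col4a5 on the X chromosome are 1342 apart. In RefSeq, Col4a2 starts at base 11312805 and Col4a1 at 11312826, so they overlap there.

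Per kilobase of gene length, the common basement membrane chains were among the most abundant of the 36. Averaged over the 24 libraries, Col4a1 stood at 165 CPM per kb, Lamb2 at 150, Col4a2 at 127, Lamc1 at 39.3, Lamb1 at 26.1 and Lama2 at 16.5. Of the fibrillar chains, Col3a1 stood at 41.3 CPM per kb, Col1a1 at 13.4, Col1a2 at 8.94, Col5a2 at 2.25 and Col5a1 at 1.94. Col3a1 and Lamc1 lay within each other's spread. Laminin beta2 stood above laminin beta1 in every library, with a ratio per kb of 6.21 ± 1.99 (SD, n = 24). Chains that assemble with each other had ratios of 1.27 ± 0.175 for Col4a1 to Col4a2, 1.49 ± 0.178 for Col1a1 to Col1a2 and 1.47 ± 0.396 for Col4a3 to Col4a4 (SD, n = 24 for each). Col3a1 to Col1a1 had a ratio of 3.14 ± 0.432 (SD, n = 24).

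No collagen or laminin gene passed the test (edgeR's quasi-likelihood test, adjusted p under 0.05) in MKO against Ctrl, where 0% of all genes did. At an unadjusted p under 0.05 there were 6 of the 36, beside 6.2% of all genes, and DESeq2 called 0 of the 36, beside 0.00814%. None passed in DKO against Ctrl, beside 0.635% of all genes, with 3 at an unadjusted p under 0.05, beside 10.5%, and 0 by DESeq2, beside 1.36%. In DKO against MKO the count was also 0, beside 0.79%, with 3 at an unadjusted p under 0.05, beside 15.3%, and 0 by DESeq2, beside 2.02%. All 5 fibrillar collagens had positive log2 ratios in MKO and in DKO against Ctrl, with medians of 0.71 and 0.22. Over the 36 genes the medians were 0.37 and 0.19. Fibroblast markers had medians of 0.76 and 0.26 in the same comparisons, with 0 of 12 called in either. The rise was not confined to fibroblast markers. Leukocyte markers had medians of 1.06 and 0.56, smooth muscle and pericyte markers 0.68 and 0.24, and endothelial markers 0.54 and 0.08. Epicardial markers had 0.15 and −0.035, glial and Schwann markers −0.13 and 0.077, and cardiomyocyte markers −0.16 and −0.18. None of these was called either. Both comparisons share the Ctrl libraries.

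**Figure D1:**
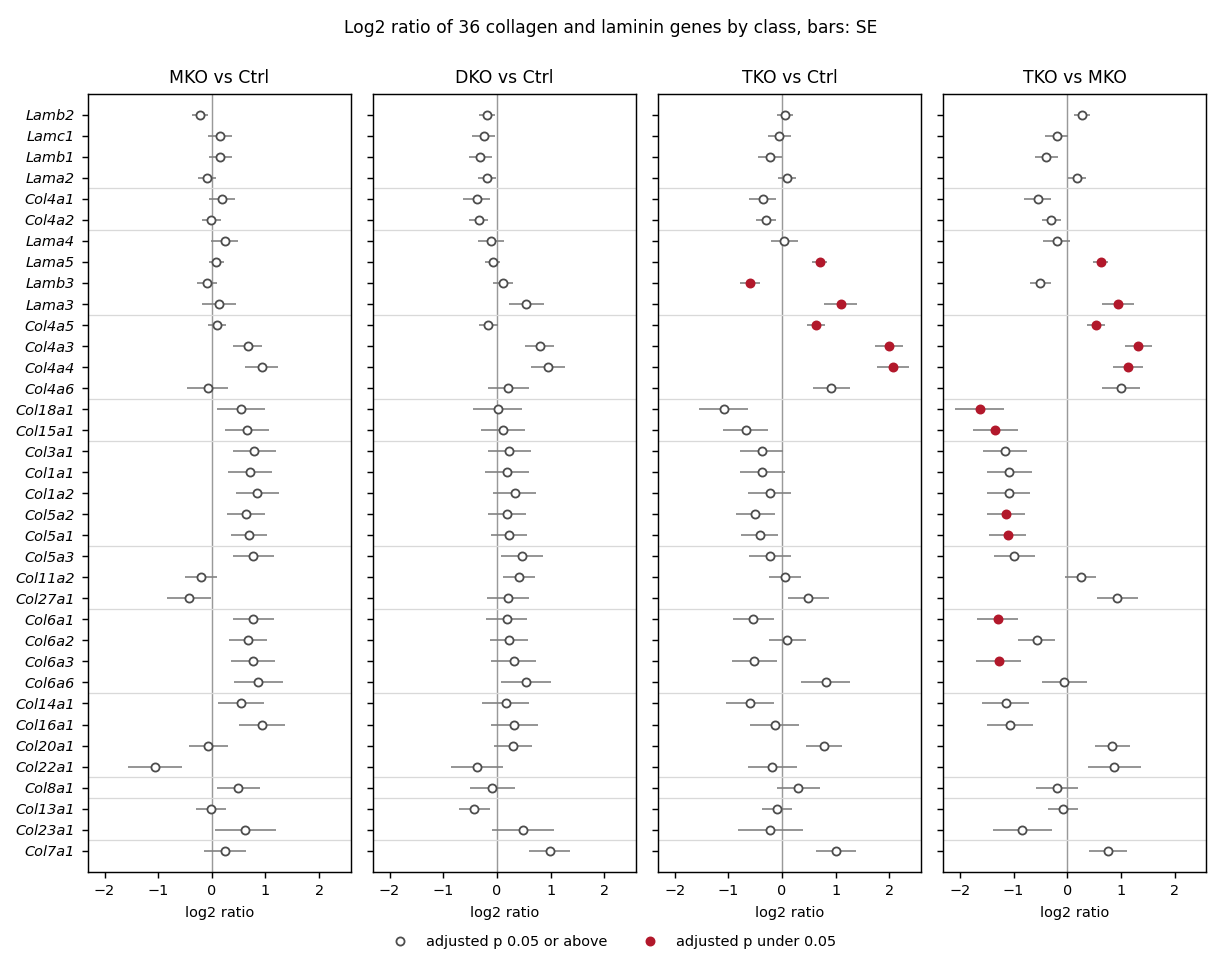
Log2 ratio of each of the 36 genes in 4 comparisons (x axis, first group over second; bars: standard error; filled points: adjusted p under 0.05), grouped by class. No point is filled in MKO against Ctrl or DKO against Ctrl, 6 are in TKO against Ctrl and 11 in TKO against MKO.

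The 6 muscle basement membrane chains passed in none of the 7 comparisons over 24 libraries. Lama2 is the laminin alpha2 chain, whose loss causes a muscular dystrophy. For Lama2, Ctrl libraries ran from 135 to 201 CPM (median 163), MKO libraries from 136 to 180 (median 156), DKO libraries from 61.5 to 184 (median 161) and TKO libraries from 137 to 205 (median 179). The groups overlapped, and the lowest library was DKO 1. In TKO against Ctrl the log2 ratio of Lama2 was 0.093 ± 0.17 (SE, 95% interval −0.25 to 0.44, adjusted p = 0.765). Lamb2 is a beta chain of the muscle laminins, as is Lamb1. For Lamb2, Ctrl libraries ran from 761 to 1020 CPM (median 916), MKO libraries from 667 to 849 (median 772), DKO libraries from 413 to 1020 (median 818) and TKO libraries from 723 to 1050 (median 959). Its log2 ratio in TKO against Ctrl was 0.052 ± 0.15 (SE, interval −0.25 to 0.36, adjusted p = 0.861). Lamc1, the gamma chain most laminins share, had −0.05 ± 0.22 (SE, interval −0.51 to 0.41, adjusted p = 0.914), and Lamb1, the other beta chain, −0.23 ± 0.22 (SE, interval −0.68 to 0.22, adjusted p = 0.544). None of these 4 intervals reached a log2 ratio of 1 in either direction.

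Collagen IV alpha1 and alpha2 form the network found in every basement membrane, and their result depended on the libraries used. For Col4a1, Ctrl libraries ran from 693 to 2050 CPM (median 1080), MKO libraries from 997 to 1680 (median 1320), DKO libraries from 274 to 1070 (median 1030) and TKO libraries from 733 to 1040 (median 921). The highest library was Ctrl 2 and the lowest was DKO 1, and the groups overlapped. For Col4a2, Ctrl libraries ran from 672 to 1250 CPM (median 892), MKO libraries from 711 to 1070 (median 936), DKO libraries from 303 to 872 (median 783) and TKO libraries from 595 to 866 (median 738). In TKO against Ctrl the log2 ratio was −0.36 ± 0.25 for Col4a1 (SE, adjusted p = 0.37) and −0.3 ± 0.18 for Col4a2 (SE, adjusted p = 0.284). Without Ctrl 3 and DKO 1 both passed, at −0.47 ± 0.15 (SE, edgeR adjusted p = 0.0289) and −0.38 ± 0.1 (SE, edgeR adjusted p = 0.0118), and the count for the 36 genes was 10, beside 21.3% of all genes, with 5 lower, beside 10.3%. Endothelial markers, of cells that also make these chains, had a median log2 ratio of −0.61 in TKO against Ctrl with 0 of 14 called, and their part in the result was not tested.

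**Figure D2:**
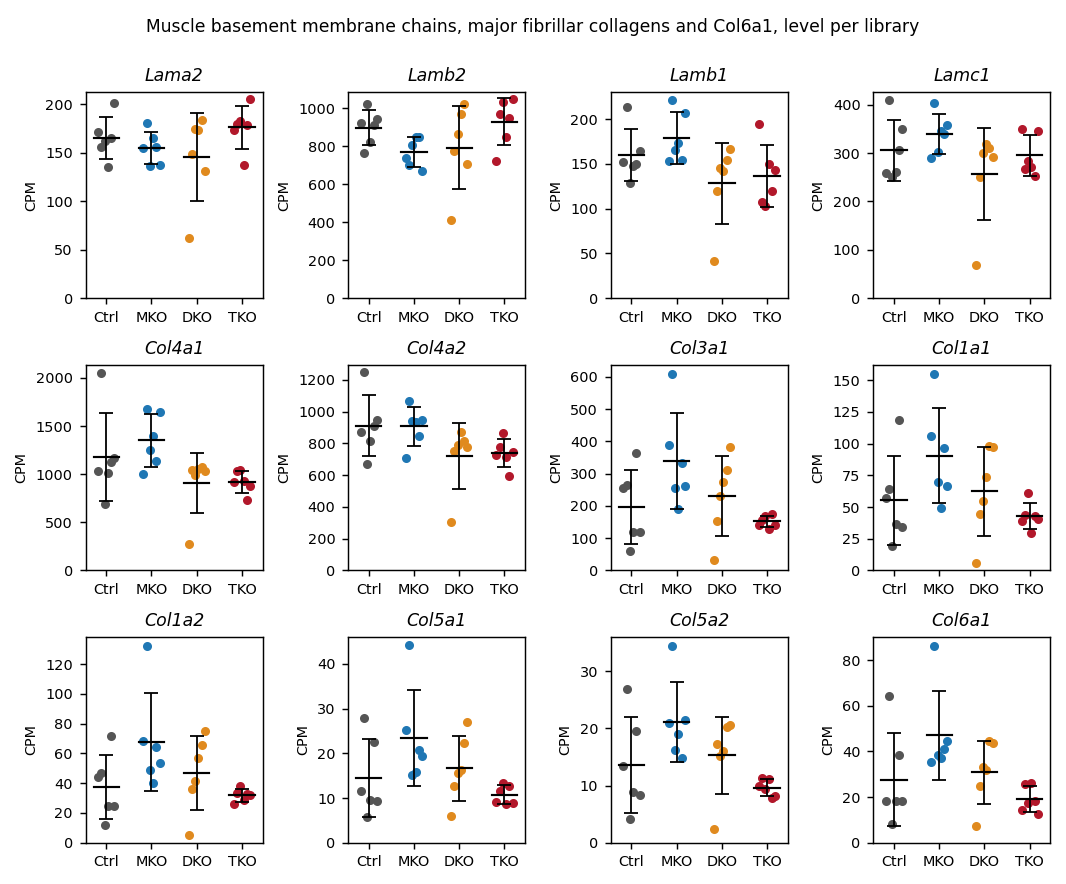
CPM in each library (y axis, from 0; points: libraries; lines and bars: mean and SD of 6) by group for the 6 muscle basement membrane chains, the 5 major fibrillar collagens and Col6a1. The groups overlap for Lama2, Lamb2, Lamb1 and Lamc1, and MKO 2 is the highest library for Col1a2, Col5a1, Col5a2 and Col6a1. DKO 1 is the lowest library for every gene shown except Col5a1, for which Ctrl 3 is.

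The genes that passed in TKO against Ctrl were collagen IV and laminin chains outside the list of muscle basement membrane chains. There 6 of the 36 passed, beside 14.1% of all genes: 5 were higher, beside 8.14%, and 1 was lower, beside 5.98%. The higher ones were 3 of the 4 less common collagen IV chains (Col4a3, Col4a4 and Col4a5) and 2 of the 4 laminin chains described outside the muscle form (Lama3 and Lama5), and the lower one was Lamb3. The median log2 ratio of the 36 was −0.11, beside −0.0088 over all genes.

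Col4a3 and Col4a4 are chains of the alpha3-alpha4-alpha5 network known from the kidney glomerulus. For Col4a3, Ctrl libraries ran from 1.46 to 3.58 CPM (median 1.92), MKO libraries from 1.58 to 4.82 (median 3.71), DKO libraries from 2.28 to 5.19 (median 4.06) and TKO libraries from 7.06 to 12.6 (median 7.89). Every TKO library lay above every library of the other groups. The log2 ratio of Col4a3 (chr1:82586921-82722059, mm10) in TKO was 1.99 ± 0.26 against Ctrl (SE, 3.97-fold, adjusted p = 8.88e-06), 1.19 ± 0.25 against DKO (adjusted p = 0.00369) and 1.32 ± 0.25 against MKO (adjusted p = 0.000804). Across the 71 bases shown above, Col4a4 (chr1:82450723-82586849) stood lower in level. For Col4a4, Ctrl libraries ran from 0.613 to 2.47 CPM (median 1.22), MKO libraries from 0.931 to 3.5 (median 2.91), DKO libraries from 1.88 to 4.04 (median 2.24) and TKO libraries from 4.16 to 8.08 (median 5.39). Again no TKO library overlapped another group. Its log2 ratio in TKO against Ctrl was 2.07 ± 0.3 (SE, 4.2-fold, adjusted p = 3.52e-05). The ratio per kb of Col4a3 to Col4a4 was 1.63 ± 0.489 in Ctrl and 1.45 ± 0.209 in TKO (SD, n = 6 each).

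In MKO and DKO both genes had mean levels between those of Ctrl and TKO, and neither passed. Against Ctrl, the log2 ratio of Col4a3 was 0.67 ± 0.27 in MKO (SE, adjusted p = 0.72) and 0.8 ± 0.27 in DKO (SE, adjusted p = 0.242). For Col4a4 it was 0.93 ± 0.31 in MKO (SE, adjusted p = 0.698) and 0.95 ± 0.31 in DKO (SE, adjusted p = 0.233).

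Col4a5 (chrX:141475419-141689235) joins them in that network and forms another with Col4a6, and at 33 CPM per kb it was far more abundant. For Col4a5, Ctrl libraries ran from 156 to 215 CPM (median 189), MKO libraries from 171 to 240 (median 205), DKO libraries from 78.9 to 213 (median 193) and TKO libraries from 239 to 396 (median 276). TKO did not overlap Ctrl or DKO, and its lowest library lay just under the highest MKO library. Its log2 ratio in TKO was 0.63 ± 0.17 against Ctrl (SE, 1.54-fold, adjusted p = 0.0146), 0.78 ± 0.17 against DKO (adjusted p = 0.00624) and 0.53 ± 0.17 against MKO (adjusted p = 0.041), and the last was lost in 8 of 30 alternatives. Per kb, Col4a5 stood at 0.183 ± 0.0618 of Col4a1 in Ctrl and at 0.328 ± 0.0764 in TKO (SD, n = 6 each). Col4a6, at 0.825 ± 0.359 CPM in Ctrl and 1.58 ± 0.785 in TKO (SD, n = 6 each), did not pass.

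Lama5 (chr2:180176373-180225859), whose upstream stretch is shown above, encodes the alpha5 chain of vascular and epithelial membranes. For Lama5, Ctrl libraries ran from 94.9 to 130 CPM (median 108), MKO libraries from 89.8 to 162 (median 109), DKO libraries from 73.5 to 123 (median 112) and TKO libraries from 145 to 204 (median 188). TKO lay above all Ctrl and DKO libraries and overlapped MKO. The log2 ratio of Lama5 in TKO was 0.7 ± 0.14 against Ctrl (SE, 1.63-fold, adjusted p = 0.00101), 0.79 ± 0.14 against DKO (adjusted p = 0.000835) and 0.62 ± 0.14 against MKO (adjusted p = 0.00393). Per kb, Lama5 stood at 0.578 ± 0.0533 of Lama2 in Ctrl and at 0.895 ± 0.192 in TKO (SD, n = 6 each).

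Lama3 and Lamb3 encode laminin chains known from skin, and they moved in opposite directions. For Lama3, Ctrl libraries ran from 1.2 to 4.02 CPM (median 1.73) and TKO libraries from 2.95 to 5.63 (median 4.31). The log2 ratio of Lama3 was 1.09 ± 0.31 (SE, adjusted p = 0.0203), with overlap, and without Ctrl 6 it had an adjusted p of 0.0522. For Lamb3, Ctrl libraries ran from 22.2 to 29.7 CPM (median 24.4), MKO libraries from 17.3 to 36 (median 22.4), DKO libraries from 17.1 to 45.3 (median 25.8) and TKO libraries from 11.2 to 23.3 (median 16.4). Lamb3 (chr1:193301994-193343878) was thus lower in most TKO libraries, with a log2 ratio to Ctrl of −0.6 ± 0.19 (SE, adjusted p = 0.0412), lost in 12 of 30 alternatives, and one to DKO of −0.7 ± 0.19 (SE, adjusted p = 0.0298), lost in 7 of 30 alternatives, among them without DKO 1.

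**Figure D3:**
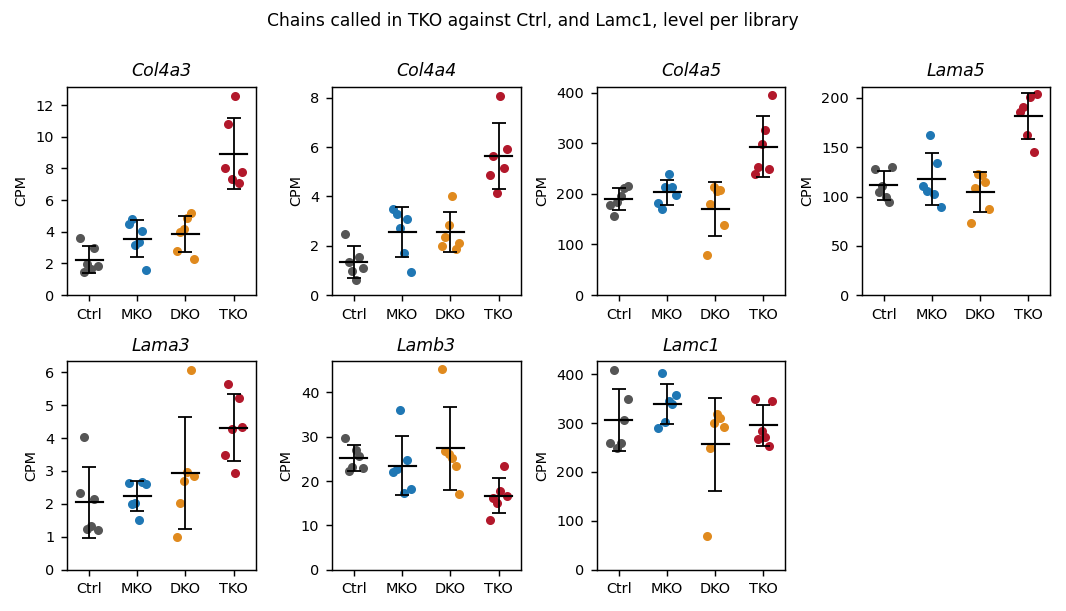
CPM in each library (y axis, from 0; points: libraries; lines and bars: mean and SD of 6) by group for the 6 chains that passed in TKO against Ctrl and for Lamc1. The TKO libraries lie above all others for Col4a3 and Col4a4, while the groups overlap for Lama3, Lamb3 and Lamc1.

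Beside these genes, in TKO against Ctrl, 1 of 12 fibroblast markers was higher (Gsn), 1 of 12 smooth muscle and pericyte markers was higher (Cspg4), and 0 of 14 endothelial and 0 of 8 leukocyte markers were called. Of 12 cardiomyocyte markers 1 was higher (Nppa) and 3 were lower (Myh6, Ttn and Atp2a2), and their sum ran from 134000 to 172000 CPM in Ctrl and from 108000 to 135000 in TKO. Of the 5 glial and Schwann markers examined 2 were tested and 1 of them, Prnp, was higher, with sums of 109 to 161 CPM in Ctrl and 228 to 419 in TKO. The defining Schwann gene Sox10 was at 0 in 16 of the 24 libraries, and the part of these cells in the result was not tested.

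Whether the guide virus had another effect in the Mrtf-mutant genotype than in the control genotype was tested as (TKO minus DKO) minus (MKO minus Ctrl). The count for the 36 genes was 0, beside 0.464% of all genes. At an unadjusted p under 0.05 there were 16, beside 12.4%, and DESeq2 called 1, beside 1.56%. All 5 major fibrillar chains were among the 16, each with a negative difference (median −1.33). Of the 6 muscle basement membrane chains 1 was, and the median of the 6 was 0.047. For Lama5 the difference was 0.71 ± 0.2 on the log2 scale (SE, adjusted p = 0.115), and Lama5 was the gene DESeq2 called (adjusted p = 0.0346). The edgeR count was 6 without Ctrl 2 (5 negative and 1 positive), 2 without DKO 1 (Col6a3 and Col15a1) and 1 without MKO 3. In TKO against DKO, 5 of 36 passed, beside 6.38% of all genes: Col4a3, Col4a4, Col4a5 and Lama5 were higher, beside 4.16%, and Lamb3 was lower, beside 2.22%. Without Ctrl 3 and DKO 1 the count was 8, beside 10%, with 4 higher and 4 lower.

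Over 24 libraries, fibrillar and related collagens had their lower calls in TKO against MKO. There 11 of the 36 passed, beside 13.3% of all genes. The 5 higher genes, beside 6.48%, were those already higher against Ctrl, and the call of Lama3 was lost in 9 of 30 alternatives. The 6 lower genes, beside 6.86%, were Col5a1, Col5a2, Col6a1, Col6a3, Col15a1 and Col18a1, and each of these 6 was lost without MKO 2. The count was 5 without MKO 2 or TKO 6, 7 without MKO 6, TKO 1, TKO 3 or TKO 4, and 21 without DKO 1. The 5 major fibrillar chains had a median log2 ratio of −1.11 with 2 called lower, and the 6 muscle basement membrane chains one of −0.25 with 0 called. Without Ctrl 3 and DKO 1 the count was 24 of 36, beside 23.4% of all genes, and 16 were lower, beside 11.4%. Those included all 5 major fibrillar chains and 3 of the membrane chains, Col4a1, Col4a2 and Lamb1, while Lamb2 was higher. Neither of these libraries is in TKO or MKO. They enter this comparison only through the filter, the normalization and the estimate of spread, which all groups share in the fit. Fitting only TKO and MKO gave a count of 19.

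Col5a1 and Col5a2 encode collagen V, which starts collagen I fibrils and sets their width. For Col5a1, Ctrl libraries ran from 5.85 to 27.9 CPM (median 10.6), MKO libraries from 15.2 to 44.1 (median 20), DKO libraries from 5.99 to 27 (median 15.9) and TKO libraries from 8.74 to 13.4 (median 10.4). All TKO libraries lay below all MKO libraries, of which MKO 2 was the highest. In TKO against MKO the log2 ratio was −1.11 ± 0.34 for Col5a1 (SE, 2.16-fold lower, adjusted p = 0.0297) and −1.14 ± 0.35 for Col5a2 (SE, 2.2-fold lower, adjusted p = 0.0331).

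Col1a1, Col1a2 and Col3a1, the chains of collagens I and III, had ratios of like size that did not pass over 24 libraries. For Col3a1, Ctrl libraries ran from 61.8 to 364 CPM (median 187), MKO libraries from 189 to 609 (median 298), DKO libraries from 31.8 to 383 (median 252) and TKO libraries from 128 to 175 (median 148). The TKO libraries lay close together below every MKO library, and the Ctrl libraries spanned the range of TKO. In TKO against MKO the log2 ratio was −1.16 ± 0.41 for Col3a1 (SE, adjusted p = 0.059), −1.08 ± 0.42 for Col1a1 (SE, adjusted p = 0.0853) and −1.09 ± 0.4 for Col1a2 (SE, adjusted p = 0.069). Without Ctrl 3 and DKO 1 the edgeR adjusted p was 0.00416, 0.01 and 0.00554. Each of these genes also passed when only TKO and MKO were fitted. Against Ctrl, the 5 fibrillar chains had a median of −0.38 in TKO with 0 called. Against DKO their median was −0.61 with 0 called. Without Ctrl 3 and DKO 1 the median against DKO was −0.78 with 1 of the 5 called lower, where 10% of all genes were called.

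Collagen VI forms beaded filaments next to basement membranes and is made mainly by fibroblasts, and 2 of its 4 genes passed in TKO against MKO. For Col6a1, Ctrl libraries ran from 8.08 to 64.2 CPM (median 18.4), MKO libraries from 35.3 to 86.2 (median 39.6), DKO libraries from 7.39 to 44.7 (median 32.5) and TKO libraries from 12.5 to 26 (median 17.9). MKO and TKO did not overlap, at a log2 ratio of −1.3 ± 0.38 (SE, 2.47-fold lower, adjusted p = 0.0254). Col6a3 had −1.28 ± 0.42 (SE, adjusted p = 0.0425). The multiplexins Col15a1 and Col18a1 lie at the outer face of vascular basement membranes, and both passed. For Col18a1, Ctrl libraries ran from 8.83 to 100 CPM (median 28.6), MKO libraries from 34.3 to 82.7 (median 47.9), DKO libraries from 3.8 to 56.6 (median 38.7) and TKO libraries from 9.84 to 24.2 (median 18.1). For Col18a1, the source of endostatin, the log2 ratio in TKO against MKO was −1.63 ± 0.46 (SE, 3.11-fold lower, adjusted p = 0.02), without overlap. Col15a1 had −1.34 ± 0.42 (SE, adjusted p = 0.0344).

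Markers of other cells moved in the same comparison. In TKO against MKO, 8 of 12 smooth muscle and pericyte markers, 6 of 14 endothelial markers and 2 of 12 fibroblast markers (Pdgfra and Postn) were lower, and Cspg4, a pericyte marker, was higher. The median log2 ratios of the lists were −1.27, −1.1 and −0.86. Fibroblast markers summed to 212 to 400 CPM in MKO and 143 to 239 in TKO. A large part of that sum was Gsn, at 72 to 99.6 in MKO and 66.3 to 111 in TKO, while 11 of the 12 markers had negative log2 ratios. Endothelial markers summed to 719 to 1560 and 186 to 746, and smooth muscle and pericyte markers to 687 to 907 and 437 to 708. Most of the smooth muscle and pericyte sum was 1 gene, Abcc9, at 466 to 609 CPM in MKO and 265 to 510 in TKO. That sum is therefore mainly a reading of Abcc9. In bulk libraries fewer cells of a type and less RNA per cell cannot be told apart, and the part of these cells in the collagen values was not tested.

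Levels of each gene were also set against the mean log2 CPM of each of 5 marker lists across the 24 libraries, 180 pairs in all, with permutation p-values adjusted over all of them. Col1a2 and the fibroblast markers had Pearson r = 0.85 and Spearman rho = 0.92 (permutation p = 0.00001 for both, the smallest that could be given, adjusted p = 8.57e-05 and 7.83e-05). On deviations from the group means r was 0.84 (adjusted permutation p = 0.00024). On the levels themselves, without Ctrl 3 and MKO 2, the libraries farthest from the median marker level, Pearson r was 0.78. All 5 fibrillar chains passed within groups, with r of 0.79 to 0.89. Of the 6 muscle basement membrane chains, Col4a1, Col4a2 and Lamc1 passed, and r over the 6 was 0.30 to 0.62. Without Ctrl 3 and DKO 1 all 5 fibrillar chains passed, with r of 0.67 to 0.81 within groups, and 0 of the 6 membrane chains, with r of 0.02 to 0.29. The counts differed between lists. In 24 libraries the endothelial list passed within groups with 4 of 5 fibrillar and 4 of 6 membrane chains, the smooth muscle and pericyte list with 5 of 5 fibrillar and 4 of 6 membrane chains, the leukocyte list with 5 of 5 fibrillar and 0 of 6 membrane chains and the cardiomyocyte list with 0 of 5 fibrillar and 0 of 6 membrane chains. These became 1 of 5 fibrillar and 2 of 6 membrane chains for the endothelial list in the 22 libraries without Ctrl 3 and DKO 1, where Col4a1 had r = 0.72 and Lamb2 r = −0.58. They were 2 of 5 fibrillar and 1 of 6 membrane chains for smooth muscle and pericytes, 4 of 5 fibrillar and 0 of 6 membrane chains for leukocytes and 0 of 5 fibrillar and 0 of 6 membrane chains for cardiomyocytes. Of the 5 genes higher in TKO, Lama3 passed with the fibroblast list within groups (r = 0.63, adjusted permutation p = 0.0211), and did not without Ctrl 3 and DKO 1 (r = 0.44, adjusted permutation p = 0.273). For Col4a3, Col4a4, Col4a5 and Lama5 r was 0.35, 0.39, 0.24 and 0.09, and without these libraries 0.30, 0.35, −0.22 and −0.18. Both axes come from the same libraries and share their depth.

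**Figure D4:**
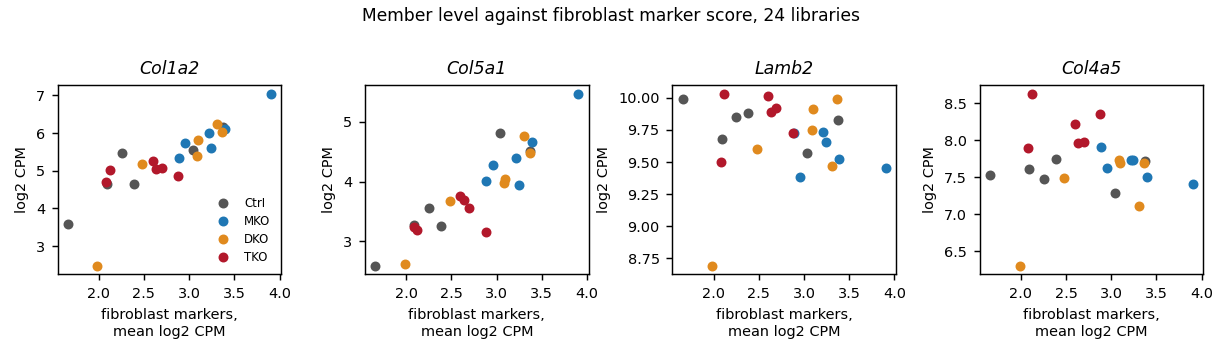
Log2 CPM of Col1a2, Col5a1, Lamb2 and Col4a5 (y axis) against the mean log2 CPM of the fibroblast markers (x axis), 1 point per library, coloured by group. Col1a2 and Col5a1 rise along the x axis (r = 0.85 and 0.91), Lamb2 and Col4a5 have r = −0.02 and −0.02 (−0.30 and −0.42 without Ctrl 3 and DKO 1), and DKO 1 is the lowest point for Lamb2 and Col4a5.

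The remaining collagen genes passed in none of the 7 comparisons over 24 libraries. Of these Col6a2, a chain of collagen VI, stood at 7.74 CPM per kb, close to Col6a1 at 7.84, and the others were lower. The 3 minor fibrillar genes were led by Col5a3 at 1.23 CPM per kb, the 4 fibril-associated genes by Col14a1 at 0.771 and the 2 transmembrane genes by Col13a1 at 0.631. Col8a1, a short-chain collagen of vessel walls, stood at 0.56, and Col7a1, the anchoring fibril collagen of skin, at 0.126. Lama4, the alpha chain of capillary membranes, was higher at 18.4 CPM per kb. Its log2 ratio in TKO against Ctrl was 0.039 ± 0.25 (SE, interval −0.47 to 0.55, adjusted p = 0.939).

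Other genes of the basement membrane changed in TKO against Ctrl, in which 14.1% of all genes were called: of 15 tested, 2 rose and 4 fell. Fbln1, a fibulin that binds laminin and nidogen, stood at 63 ± 8.86 CPM in Ctrl and 234 ± 81.9 in TKO (SD, n = 6 each), with no overlap and a log2 ratio of 1.89 ± 0.23 (SE, adjusted p = 3.45e-06). Pxdn, the peroxidase that cross-links collagen IV, stood at 347 ± 84.1 and 194 ± 27.5 CPM (SD, n = 6 each), again with no overlap, at −0.84 ± 0.24 (SE, adjusted p = 0.0166). Egflam, a dystroglycan ligand, had −1.06 ± 0.2 and Smoc2, a calcium-binding matrix protein, −1.18 ± 0.2 (SE, adjusted p = 0.000529 and 0.000183). The others were Agrn, which rose, and Hspg2, which fell.

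Of 23 tested genes for modifying and processing collagen, 6 rose and 2 fell in TKO against Ctrl, beside 8.14% and 5.98% of all genes. Leprel1, a prolyl 3-hydroxylase, stood at 2.32 ± 0.498 CPM in Ctrl and 11.4 ± 7.44 in TKO (SD, n = 6 each), with no overlap and a log2 ratio of 2.29 ± 0.33 (SE, adjusted p = 2.9e-05). P4ha1, a prolyl 4-hydroxylase subunit that helps to stabilise the triple helix, had 0.72 ± 0.14 (SE, adjusted p = 0.000982). The lysyl hydroxylases moved in opposite directions, Plod2 with 0.77 ± 0.14 (SE, adjusted p = 0.000549) and Plod1 with −0.42 ± 0.08 (SE, adjusted p = 0.000442). Plod1 was also lower in DKO against Ctrl, at −0.35 ± 0.08 (SE, adjusted p = 0.0269). Serpinh1, the collagen chaperone, had 0.067 ± 0.14 in TKO against Ctrl (SE, adjusted p = 0.811).

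Of 23 tested matrix receptors and their partners, 2 rose and 0 fell in TKO against Ctrl, beside 8.14% and 5.98% of all genes. Itga3, a laminin-binding integrin chain, had 0.36 ± 0.11 (SE, adjusted p = 0.0245) and Itga10 1.15 ± 0.38 (SE, adjusted p = 0.0424). Dag1 and Itga7, the receptors of the Lama2 laminins, had 0.19 ± 0.17 (SE, adjusted p = 0.52) and 0.14 ± 0.11 (SE, adjusted p = 0.458).

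The authors' deposited tables of pairwise tests, which leave out Ctrl 3 and DKO 1, called 0 of the 36 for MKO and Ctrl, beside 0.11% of all genes with an adjusted p there, and 0 for DKO and Ctrl, beside 1.8%. For DKO and MKO the authors' deposited table called 1, beside 3.69%, which was Col4a1, lower in DKO at a log2 ratio of −0.38 (SE 0.12, adjusted p = 0.0453 from the authors' DESeq2). For TKO and Ctrl the authors' deposited table called 9, beside 15.8%, with 5 higher in TKO, beside 8.34%, and 4 lower, beside 7.42%, and it adds Col4a1, Col4a2 and Col18a1 to the 6 above. For TKO and MKO the authors' deposited table called 21, beside 20.8%, with 6 higher, beside 9.92%, and 15 lower in TKO, beside 10.9%. In the authors' deposited table for TKO and DKO 16 were called, beside 11.5%. Of these 4 were higher, beside 6.24%, and 12 lower in TKO, beside 5.23%. The lower ones included the 5 major fibrillar chains, with log2 ratios from −0.89 for Col5a2 to −0.78 for Col1a1 and Col1a2.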

How the data were processed

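Polyadenylated RNA of sorted cardiomyocytes was measured in 24 libraries made with SMART-Seq v4 and Nextera XT kits, per the labels' protocols. Neither kit marks strand. The authors deposited raw counts per gene, and the submitters' processing notes name STAR, featureCounts, DESeq2 and the build mm10, without versions. The handling of reads that match several genes is not stated. Among the 36 genes only Col7a1 shares exon bases with another annotated gene, Mir711, which had 0 counts. The authors' deposited comparison tables hold log2 fold changes, their standard errors, p-values and adjusted p-values, per the file headers. They also hold a mean normalized signal and a Wald test score, both of which the authors computed. The first was used only to find which libraries the tables rest on, and the second was not used.

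Groups came from the sample titles. The tests used the raw counts and edgeR 4.0.16 under R 4.3.3 (quasi-likelihood test, two-sided, TMM, filterByExpr with a minimum count of 10), in 1 fit over 24 libraries, adjusted by Benjamini-Hochberg over 12281 genes, and adjusted p-values of genes come from it unless another source is named. CPM was computed from the counts, and log2 CPM with a prior count of 2. Correlations used 100000 permutations. Total counts per library ran from 8017413 to 11496873 for Ctrl, from 9731621 to 13201995 for MKO, from 5830185 to 12157279 for DKO (DKO 1 lowest) and from 10210516 to 17184517 for TKO. No 2 libraries of a group agreed within sampling noise (chi-square per gene at least 6.83 over 60 pairs). P-values measure the spread between libraries, which may be technical.

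Of the 37 genes 1 is not reported here, nor are 2 genes of the other lists, and counts leave them out, while all fits include them. The genes, lists and alternatives were chosen with earlier results of these data known. The text names the muscle basement membrane and major fibrillar chains, every gene called in any of the 7 comparisons, the most abundant gene per kb of each other class, and up to 4 partner genes of smallest adjusted p per list. Other genes named were chosen after their values were seen. Alternatives were RLE size factors, DESeq2 1.42.0, no filter on low counts, a replicate block, 22 libraries (without Ctrl 3 and DKO 1), only the groups compared, and each library left out in turn.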

Additional observations from a re-analysis of the deposited data

Results flagged for a closer look

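Of 108 sets of 6 libraries (27 genes in 4 groups), 16 held a library far from the other 5 by Dixon's criterion, which chance gives in about 1 of 20. Of these, 7 were in DKO 1. Against the other 5 DKO libraries, the median log2 deviation of DKO 1 was −1.6 over the muscle basement membrane chains and −3.02 over the major fibrillar chains. Over all genes it was −0.071. In DKO 1, Col4a1 stood at 274 CPM (other 5 libraries 988 to 1070). Also lowest there were Col4a2 at 303, Lamc1 at 69.1, Lama4 at 34.8, Col5a2 at 2.4 and Col15a1 at 0.399 CPM, while Lamb3 at 45.3 was highest. In MKO 2, Col6a1 stood at 86.2 CPM (other 5 libraries 35.3 to 44.7). Also highest there were Col1a2 at 132, Col5a1 at 44.1, Col5a2 at 34.4 and Col5a3 at 20.4 CPM. In Ctrl 2, Col4a1 stood at 2050 CPM (other 5 libraries 693 to 1170), and Col18a1 at 100 and Lama4 at 205 were highest too. In Ctrl 5, Col8a1 stood at 6.72 CPM (other 5 libraries 1.23 to 2.44).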

How the results depend on the processing

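The replicate block left the counts of calls at 0 in MKO, 0 in DKO and 6 in TKO against Ctrl, 5 in TKO against DKO, 11 in TKO against MKO, 0 in DKO against MKO and 0 for the difference between genotypes, and changed no call. The replicate numbers were not taken to pair the libraries. Deviations of same-numbered libraries of different groups correlated between −0.22 and 0.64 over 36 pairs (median 0.07), with 14 above 0.1. Those of differently numbered libraries correlated between −0.5 and 0.45 over 180 pairs (median −0.02), with 45 above 0.1. These values do not settle whether the numbers pair the libraries. Without Ctrl 3 and DKO 1 the count was 10 in TKO against Ctrl, 8 in TKO against DKO and 24 in TKO against MKO, and 36 of 180 correlations passed, against 76 in 24 libraries. Fitting only the groups compared gave 19 in TKO against MKO and 3 in TKO against DKO, and DESeq2 gave 1 for the difference between genotypes. With 1 library left out, counts were 4 to 7 in TKO against Ctrl, 4 to 6 in TKO against DKO, 5 to 21 in TKO against MKO (fewest without MKO 2 or TKO 6, 7 without MKO 6, TKO 1, TKO 3 or TKO 4, most without DKO 1), 0 to 6 for the difference between genotypes (most without Ctrl 2) and 0 to 0 in MKO against Ctrl, DKO against Ctrl and DKO against MKO. The calls of Col4a3, Col4a4 and Lama5 in TKO against each other group held in 30 of 30 alternatives. Log2 ratios that changed sign, none of them called, were in TKO against Ctrl those of Lama4 (−0.056 in 22 libraries, −0.059 to 0.33 with 1 left out) and, with 1 left out, Lamc1 (−0.1 to 0.051), Col13a1 (−0.24 to 0.11) and Col5a3 (−0.41 to 0.29), all without Ctrl 2, and Col1a1 (−0.55 to 0.017) and Col1a2 (−0.42 to 0.065), both without Ctrl 5. In MKO against Ctrl that of Lama5 changed (−0.048 to 0.15, without MKO 3). The causes were not tested.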
